A study of Mus musculus with 22 samples.

Results

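This report compares mouse embryonic stem (ES) cells that were transfected with siRNA against YAP and TAZ and moved to medium without CHIR with control cells kept in CHIR. It used 15 of the 22 arrays of the study: all 8 arrays of YAP/TAZ siRNA in PD-only medium and all 7 arrays of control siRNA in 2i medium. The cells were of the Rex1GFPd2 line, in which a destabilised green fluorescent protein is read from the Rex1 (Zfp42) locus. All cells were kept in PD0325901 (PD), which blocks the kinase MEK, and all were transfected with siRNA. The 2i medium also held CHIR99021 (CHIR), which blocks the kinase GSK3. Cells in PD-only medium lost CHIR 24 hours after transfection, and all cells were harvested 72 hours after transfection. The YAP/TAZ arm consisted of siYAP/TAZ#1 and siYAP/TAZ#2 with 4 arrays each, and the 2i arm of siControl#1 with 4 arrays and siControl#2 with 3. A further arm, control siRNA in PD-only medium (7 arrays), is set beside the results, shared by both differences from it, because both medium and siRNA differ between the compared arms, so within this comparison alone their parts cannot be told apart. The labels call the arrays biological replicates without naming cultures or days, so p-values measure the spread between these arrays.

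YAP and TAZ are coactivators without a DNA-binding domain of their own. They act in the nucleus with TEAD transcription factors, are held in the cytoplasm by the kinases of the Hippo pathway, and have also been placed in the cytoplasmic complex that leads to destruction of beta-catenin. GSK3 is a kinase of that complex, so an inhibitor of GSK3 lets beta-catenin accumulate, which in ES cells relieves repression of the naive pluripotency network by Tcf7l1. GSK3 also phosphorylates many proteins outside the Wnt pathway, and YAP and TAZ have partners besides beta-catenin. The comparison asks where cells with less YAP and TAZ differ from cells with CHIR.

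Values are log2 expression per gene after RMA (robust multi-array average), so a difference of 1 is a factor of 2. Differences are YAP/TAZ siRNA in PD-only medium minus control siRNA in 2i, with the standard error (SE) of a limma model, each siRNA weighted equally. A gene was called higher or lower at a Benjamini-Hochberg adjusted p below 0.05 over all 18193 genes. Where a difference is printed without its SE, the SE was between 0.02 and 0.17. Levels of an arm are given as its lowest, median and highest array. RMA makes the arrays' distributions alike and gives no detection call, and folds against a dim level are compressed. In whole cultures, a lower level in every cell and fewer cells with the RNA cannot be told apart.

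Markers of the labelled cell type were present. For the ES cell genes Pou5f1, Sox2, Nanog, Zfp42, Sall4, Utf1 and Dppa5a the mean level was 12.65 to 12.69 in 2i and 12.59 to 12.62 with YAP/TAZ siRNA. Array medians, interquartile ranges and the 3′ to 5′ differences of Actb and Gapdh showed no difference between the arms past the threshold in exact permutation tests (lowest adjusted p 0.351 over 6 measures). The Actb 3′ minus 5′ difference was 0.966 ± 0.104 (SD, n = 7) in 2i, 0.975 ± 0.062 (SD, n = 8) with YAP/TAZ siRNA and 0.717 ± 0.035 (SD, n = 7) in PD-only controls. The poly-A spikes, RNAs that are added to each sample, were lower with YAP/TAZ siRNA, at 8.327 ± 0.128 (SD, n = 8) against 8.848 ± 0.145 (SD, n = 7) in 2i over 24 probe sets. The two-sided exact permutation test gave p = 0.000155, the smallest possible, and 0.00093 after adjustment. PD-only controls had a spike level of 8.427 ± 0.168 (SD, n = 7). The part of this difference in the results was not tested beyond a fit with the spike level as a covariate. Spike levels of the arms did not overlap (8.158 to 8.537 with YAP/TAZ siRNA, 8.696 to 9.12 in 2i). That fit therefore cannot tell a call lost to the spike level from one lost to lower precision.

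Both targeted mRNAs were lower in the YAP/TAZ siRNA arm. Yap1 stood at 10.81, 10.89 and 10.95 in 2i and at 9.67, 9.76 and 9.91 with YAP/TAZ siRNA. The difference was -1.12 ± 0.03, which leaves 45.9% of the 2i level, and the arms did not overlap. Wwtr1, the gene of TAZ, stood at 9.99, 10.01 and 10.07 in 2i and at 9.18, 9.23 and 9.41 with YAP/TAZ siRNA, again with no overlap. Its difference was -0.78 ± 0.03, which leaves 58.2%. In PD-only controls the means of Yap1 and Wwtr1 were 11.04 and 10.28, both above the 2i means of 10.89 and 10.03. Protein was not measured here.

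Many genes differed between the arms, most of them by little. Of 18193 genes, 8791 (48.3%) were called, 4647 (25.5%) higher and 4144 (22.8%) lower with YAP/TAZ siRNA. A difference of at least 2-fold was found for 275 genes (1.51%), of which 115 (0.632%) were higher and 160 (0.879%) lower. The array values of the arms did not overlap in 5140 genes (28.3%), and this held for all 275 genes with a 2-fold difference. The median difference over all genes was 0.015 and the median absolute difference 0.11. With the spike level as a covariate 5605 genes were called and 305 of them by 2-fold or more, and a test against a 1.2-fold difference called 2452. The counts of members called in each gene list are to be read against the 25.5% of all genes called higher and the 22.8% called lower. Lists and members were chosen with earlier results of these data known, so these shares are descriptions and no test of a list.

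**Figure D1:**
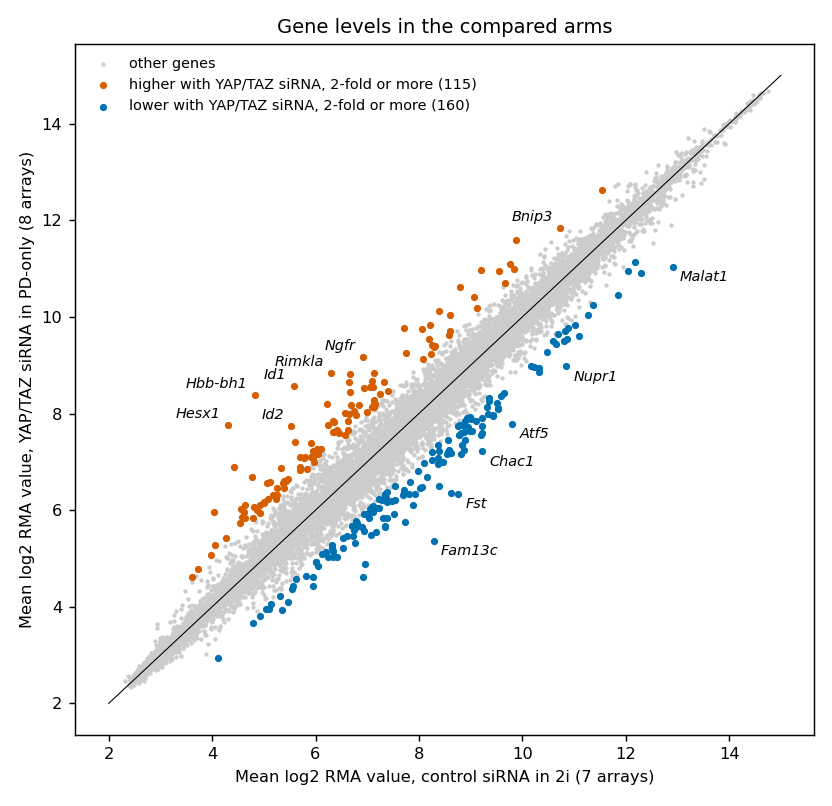
Mean log2 RMA level of each of 18193 genes in 2i controls (horizontal axis, 7 arrays) and with YAP/TAZ siRNA in PD-only medium (vertical axis, 8 arrays); the line marks equal levels. The 115 orange and 160 blue points are called genes with a difference of 2-fold or more, and most other genes lie close to the line.

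The siRNAs within an arm were compared in the same way. No gene was called between siYAP/TAZ#1 and siYAP/TAZ#2 by limma (0%), with 649 genes at an unadjusted p below 0.05, and the largest absolute difference was 0.51. None was called between the control siRNAs in 2i either (0%), with 1450 genes at an unadjusted p below 0.05 and a largest absolute difference of 0.6. For Hbb-bh1, the gene with the largest difference between the arms, the mixes had means of 8.40 and 8.35, and for Fam13c, at the other end, 5.35 and 5.39.

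The genes farthest above 2i included an embryonic globin, a forebrain homeobox gene, Id genes and a neurotrophin receptor. The 14 highest and 14 lowest genes were taken only from called genes whose arms did not overlap. Separate arms were thus a condition for naming them, here and where they recur below. Hbb-bh1, an embryonic beta-like globin, stood at 4.62, 4.80 and 5.01 in 2i and at 8.24, 8.39 and 8.52 with YAP/TAZ siRNA, a difference of 3.55 ± 0.08 (adjusted p = 6.78e-18). The PD-only control mean of 4.65 was near the 2i level. Rimkla, which encodes an enzyme that makes N-acetylaspartylglutamate, stood at 6.12, 6.29 and 6.51 in 2i and at 8.64, 8.83 and 9.03 with YAP/TAZ siRNA, a difference of 2.53 ± 0.06. Ngfr, the p75 neurotrophin receptor, stood at 6.74, 6.95 and 7.08 in 2i and at 9.03, 9.17 and 9.27 with YAP/TAZ siRNA, a difference of 2.26 ± 0.06. The PD-only control means of Rimkla and Ngfr, 6.59 and 6.76, also lay near 2i.

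Stmn3, a stathmin family protein that binds tubulin, differed by 2.06 ± 0.06, and Slit2, a secreted ligand of Robo receptors, by 1.80 ± 0.06. Both exceeded the PD-only control as well, by 2.54 ± 0.06 and 1.21 ± 0.06. Krtdap, a secreted protein of differentiating keratinocytes, was higher by 2.45 ± 0.10. It stood at 3.96, 4.39 and 4.85 in 2i and at 6.46, 6.94 and 7.12 with YAP/TAZ siRNA. For this group the YAP/TAZ siRNA level was the highest of the 3 arms.

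Other genes of the upper end had PD-only control levels above 2i. Hesx1, a homeobox repressor of the anterior forebrain and pituitary, stood at 3.96, 4.32 and 4.82 in 2i and at 7.46, 7.77 and 7.96 with YAP/TAZ siRNA, a difference of 3.44 ± 0.09, while the PD-only control mean was 8.40. Id1 stood at 5.26, 5.57 and 5.87 in 2i and at 8.48, 8.57 and 8.66 with YAP/TAZ siRNA, a difference of 3.0 ± 0.06, with 10.42 in PD-only controls. Greb1l differed by 2.14 ± 0.05, and its PD-only mean of 10.61 was above the YAP/TAZ siRNA mean of 8.81. For these the YAP/TAZ siRNA level was above 2i and below PD-only control. Wfdc2, a secreted protein with whey acidic protein domains, Jade2, a subunit of histone acetyltransferase complexes, and Crip1, a LIM-domain protein, were higher than in 2i by 1.99 ± 0.04, 1.98 ± 0.04 and 1.82 ± 0.04. Their YAP/TAZ siRNA means lay at 0.07, -0.18 and -0.21 from PD-only control on the log2 scale.

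The lower end included Fam13c, Fst, Atp12a and Tsc22d3. Fam13c stood at 8.19, 8.31 and 8.36 in 2i and at 5.22, 5.33 and 5.54 with YAP/TAZ siRNA, a difference of -2.92 ± 0.05 (adjusted p = 2.17e-19). Tsc22d3, a leucine zipper protein induced by glucocorticoids, stood at 8.54, 8.63 and 8.71 in 2i and at 5.98, 6.38 and 6.64 with YAP/TAZ siRNA, a difference of -2.27 ± 0.07. Both had PD-only control means (8.70 and 8.48) close to or above 2i. Other probe sets of Fam13c and Tsc22d3 differed less, and with the mean of all probe sets the differences were -1.31 and -1.13. Where another difference of at least 0.5 moved by over 1.5 times in this way, the value over all its probe sets is given beside it.

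Cpe, a carboxypeptidase that trims peptide hormones, Bach2, a leucine zipper repressor, and Mid1ip1, which promotes polymerisation of acetyl-CoA carboxylase, were lower, at -2.08, -1.78 and -1.66. In all 3 the PD-only control mean was above the 2i mean, so the YAP/TAZ siRNA arm was the lowest. The ATPase gene Atp12a differed by -2.31 ± 0.11 and Cyp39a1, an oxysterol hydroxylase, by -1.68 ± 0.07, also with the lowest level in the YAP/TAZ siRNA arm. Malat1, a long nuclear RNA, differed by -1.86 ± 0.17, and its YAP/TAZ siRNA arrays ranged from 10.72 to 12.08, the widest spread among these genes. Bdh2, a short-chain dehydrogenase, and Serpinb1b, a protease inhibitor, were lower than in 2i, at -1.87 and -1.67 and still 0.42 and 1.17 above PD-only control. With the mean of all probe sets of a gene, several of these differences were smaller: 1.25 for Ngfr, 1.17 for Greb1l, 1.03 for Jade2, 0.88 for Slit2, -1.07 for Cpe, -1.06 for Bach2 and -1.22 for Malat1.

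**Figure D2:**
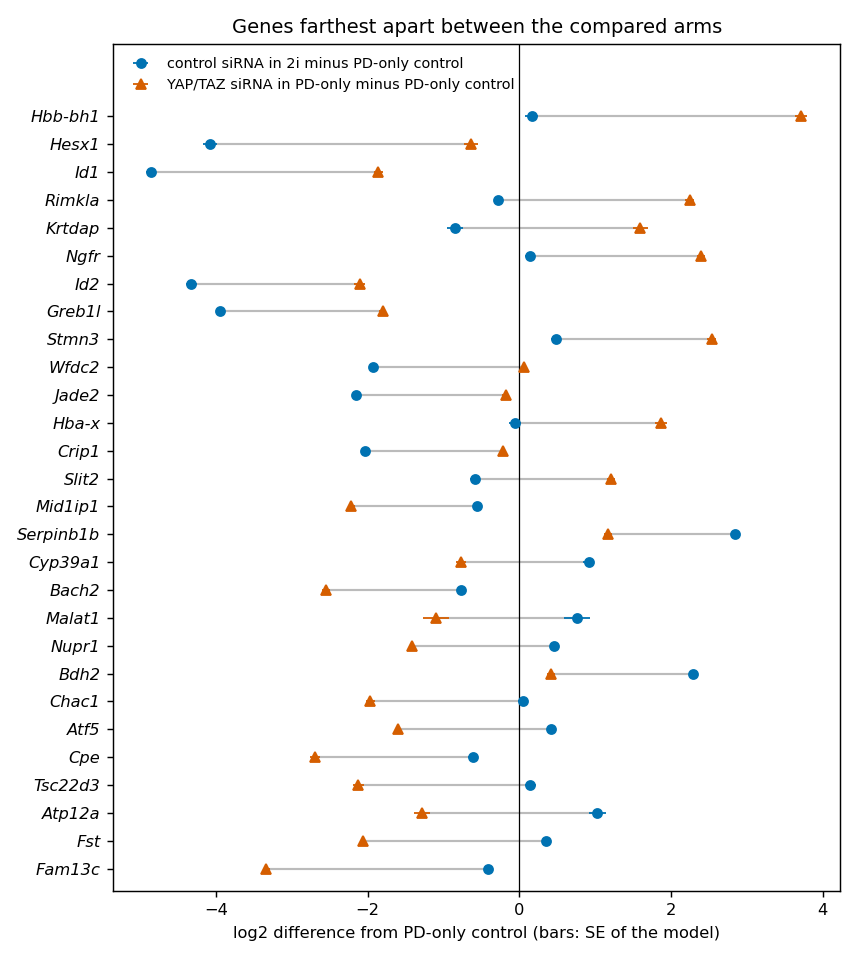
Log2 difference from PD-only control (horizontal axis) of the 28 genes farthest apart between the compared arms, for control siRNA in 2i (circles) and YAP/TAZ siRNA in PD-only medium (triangles), with the SE of the model as bars. Hbb-bh1 lies at 0.17 in 2i and 3.72 with YAP/TAZ siRNA, and Id1 at -4.86 and -1.86; both differences of a gene share the 7 PD-only control arrays.

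Genes of the integrated stress response were lower with YAP/TAZ siRNA. This response is started by kinases that phosphorylate eIF2alpha, among them sensors of amino acid shortage and of unfolded protein, and raises the translation of ATF4, which switches on genes for amino acid import and synthesis. The list also holds genes of the unfolded protein response of the endoplasmic reticulum. Like the other lists, it was chosen with earlier results of these data known. Of its 23 members, 19 (82.6%) were lower and 3 (13.0%) higher, against 22.8% and 25.5% of all genes, and in 7 the fall from 2i was at least 2-fold. The median member differed by -0.80 (all genes 0.015), and the array values did not overlap in 21 of 23 (28.3% of all genes). With the spike level as a covariate 19 were lower and 2 higher.

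The element bound by ATF4 and its C/EBP-family partners has the core TGATGNAA. In RefSeq promoter windows of GRCm38.p6, from 250 bases before to 50 after each gene's start, this core was found on either strand in 8 of 22 members with a window (36.4%) and in 465 of 14368 genes on the array (3.2%). The list was put together from genes known for this response, targets of ATF4 among them. The larger share can therefore follow from how the list was chosen and says nothing on why its members were lower. A part of ATF4 in these differences was not tested. The windows of the 4 members with the largest differences that hold the core are shown so that the match, in capitals, can be seen in place. All 4 matches lie on the strand opposite the gene, so the capitals spell the reverse complement. They begin 193 bases before the start of Chac1 (chr2:119350992-119351291, plus strand), 110 before that of Nupr1 (chr7:126625421-126625720, minus strand), at base 15 counted from the start of Trib3 (chr2:152344011-152344310, minus strand) and 200 before that of Vldlr (chr19:27216770-27217069, plus strand). A match describes letters and not binding, and a second Vldlr window had none.
Chac1: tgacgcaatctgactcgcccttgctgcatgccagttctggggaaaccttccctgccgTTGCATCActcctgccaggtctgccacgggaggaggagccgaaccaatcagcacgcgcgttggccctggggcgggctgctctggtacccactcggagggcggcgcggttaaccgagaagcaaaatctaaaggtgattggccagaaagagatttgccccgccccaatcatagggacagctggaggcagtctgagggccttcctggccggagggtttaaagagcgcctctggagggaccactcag
Nupr1: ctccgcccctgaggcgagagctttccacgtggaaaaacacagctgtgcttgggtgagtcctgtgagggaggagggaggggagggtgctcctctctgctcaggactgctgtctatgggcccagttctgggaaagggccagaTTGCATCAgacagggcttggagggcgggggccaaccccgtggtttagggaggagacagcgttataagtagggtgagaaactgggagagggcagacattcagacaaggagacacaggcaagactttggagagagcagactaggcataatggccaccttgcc
Trib3: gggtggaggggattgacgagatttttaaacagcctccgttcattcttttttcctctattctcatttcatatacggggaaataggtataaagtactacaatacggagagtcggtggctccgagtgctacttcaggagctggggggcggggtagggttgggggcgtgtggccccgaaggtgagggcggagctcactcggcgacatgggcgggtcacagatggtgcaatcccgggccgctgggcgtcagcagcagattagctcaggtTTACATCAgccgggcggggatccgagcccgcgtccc
Vldlr: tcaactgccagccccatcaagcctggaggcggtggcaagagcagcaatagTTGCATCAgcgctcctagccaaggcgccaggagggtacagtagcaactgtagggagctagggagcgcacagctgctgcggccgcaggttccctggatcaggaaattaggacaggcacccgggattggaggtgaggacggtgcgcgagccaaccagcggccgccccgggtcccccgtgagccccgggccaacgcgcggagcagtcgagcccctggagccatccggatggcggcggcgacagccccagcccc

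Chac1, an enzyme that breaks down glutathione, stood at 9.14, 9.20 and 9.36 in 2i and at 7.04, 7.21 and 7.46 with YAP/TAZ siRNA, a difference of -2.01 ± 0.06 (adjusted p = 2.14e-16). The PD-only control mean was 9.18, at the 2i level. Nupr1, a small nuclear stress protein, stood at 10.77, 10.84 and 10.92 in 2i and at 8.85, 8.99 and 9.08 with YAP/TAZ siRNA, a difference of -1.87 ± 0.03. Trib3, a pseudokinase that restrains ATF4 and AKT, stood at 9.16, 9.20 and 9.28 in 2i and at 7.48, 7.57 and 7.76 with YAP/TAZ siRNA, a difference of -1.62 ± 0.04, with 9.14 in PD-only controls. None of the 3 had overlapping arms. The lipoprotein receptor gene Vldlr differed by -1.56 ± 0.04.

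Among the transcription factors of the response, Ddit3 (CHOP) stood at 8.85, 8.87 and 8.99 in 2i and at 7.32, 7.46 and 7.53 with YAP/TAZ siRNA, a difference of -1.45 ± 0.03, and Atf4 itself differed by -0.66 ± 0.03, Cebpb by -0.80 ± 0.04 and Atf3 by -0.67 ± 0.08. Atf5, a relative of ATF4 outside the list, was lower, at -2.02 and stood at 9.73, 9.80 and 9.89 in 2i and at 7.69, 7.76 and 7.90 with YAP/TAZ siRNA. Enzymes of amino acid synthesis were lower as well. Phgdh and Psat1, which make serine, differed by -1.38 ± 0.03 and -0.98 ± 0.02. Aldh18a1, of proline synthesis, differed by -1.29 ± 0.04, Asns, of asparagine synthesis, by -0.69 ± 0.02 and the mitochondrial folate enzyme Mthfd2 by -0.92 ± 0.03.

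The amino acid transporter genes Slc7a11, Slc7a5 and Slc3a2 were lower, at -0.85 (-0.56 over all probe sets), -0.62 and -0.48. Slc7a11 was near the bottom of the scale, with means of 3.88 in 2i and 3.03 with YAP/TAZ siRNA. The secreted protein gene Stc2 differed by -0.62 ± 0.06. Members tied to the endoplasmic reticulum were divided. Herpud1, of protein degradation at that membrane, and the factor Xbp1 were lower, at -0.93 and -0.41. The chaperone gene Hspa5 (BiP) and its partner Dnajb9 were higher, by 0.19 and 0.18, and Ddit4, an inhibitor of mTORC1, was higher by 0.68. Sesn2 was not called, at -0.04 ± 0.03, but was called lower over all its probe sets, at -0.41. It was also called lower with siControl#1 as the only 2i control and without siControl#2 A. The Dnajb9 and Hspa5 differences are small beside the 2-fold threshold.

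The position of PD-only control differed within the list. The median member lay 0.09 above PD-only control in 2i and at -0.81 with YAP/TAZ siRNA. Chac1 was 0.05 from PD-only control in 2i and -1.96 with YAP/TAZ siRNA, and Ddit3 0.12 and -1.34. Several members departed from this. Asns had 2i at 0.86 and YAP/TAZ siRNA at 0.17 from PD-only control. For Asns it is thus the 2i arm that stands apart. For the dim gene Slc7a11 the PD-only control mean of 3.24 was also nearer to YAP/TAZ siRNA than to 2i. The PD-only control means of Atf3, Cebpb and Ddit4 were 7.93, 9.82 and 10.79, above their 2i means of 6.02, 8.78 and 9.21.

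**Figure D3:**
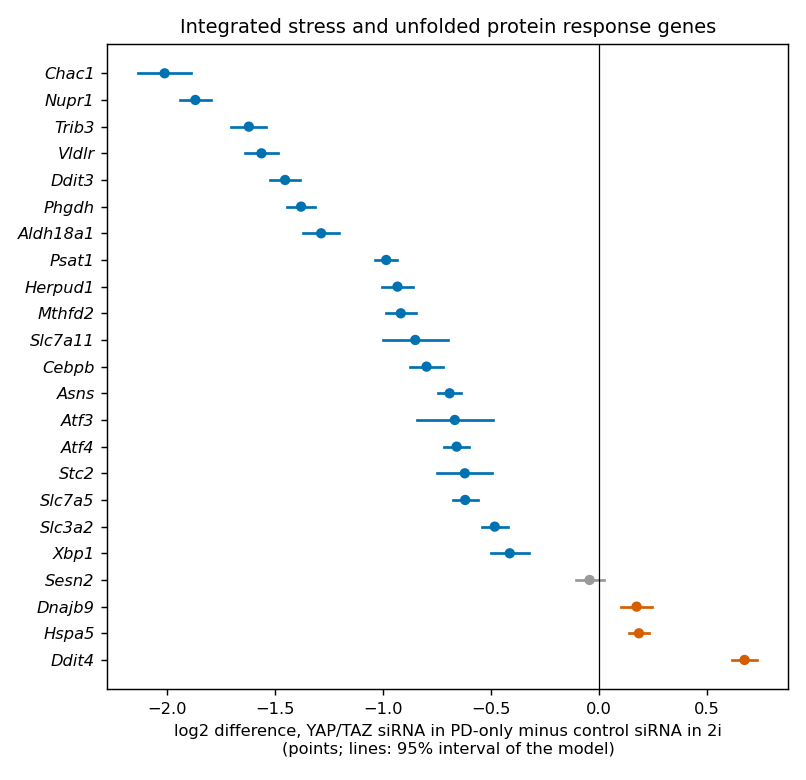
Log2 difference between YAP/TAZ siRNA in PD-only medium and control siRNA in 2i (horizontal axis) for the 23 genes of the integrated stress and unfolded protein response list, with the 95% interval of the model; blue genes were called lower, orange higher, grey not called. Differences run from -2.01 for Chac1 to 0.68 for Ddit4, and 19 genes were called lower.

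Id1, Id2 and Id3, which encode inhibitors of basic helix-loop-helix factors and are targets of BMP signalling, had the largest differences of the BMP and Id list. Id2 stood at 5.25, 5.46 and 5.86 in 2i and at 7.56, 7.74 and 7.95 with YAP/TAZ siRNA, a difference of 2.22 ± 0.07. Id3 stood at 6.25, 6.48 and 6.64 in 2i and at 7.58, 7.67 and 7.74 with YAP/TAZ siRNA, a difference of 1.23 ± 0.05. In all of Id1, Id2 and Id3 the YAP/TAZ siRNA arrays lay above every 2i array, and PD-only control was higher still, with means of 10.42, 9.86 and 9.86. Id4 went the other way, -0.42 ± 0.03, and its PD-only mean of 9.30 was the lowest of the arms. Another probe set of Id2 differed less, and the mean of its probe sets gave 1.33.

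The ligands, receptors and SMAD proteins of the BMP pathway differed less. The ligand Bmp4 was not called, at -0.02 ± 0.04 (95% interval -0.10 to 0.05), and Bmp2 and Bmp7 were higher by 0.28 and 0.19. Of the receptors, Bmpr2 was lower, at -0.12; Bmpr1a was lower, at -0.28 on its brightest probe set, while 3 of its other probe sets were called higher. The signal transducers Smad1, Smad5 and Smad4 were lower, at -0.33, -0.28 and -0.17, though Smad5 was not called over all its probe sets, at -0.05. Of the inhibitory SMADs, Smad6 was higher by 0.63 and Smad7 lower, at -0.52. In all, 8 of 26 members were higher and 9 lower (30.8% and 34.6%, beside the 25.5% and 22.8% of all genes), with a median of -0.03. With the spike level as a covariate 4 were higher and 7 lower.

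In the Nodal and activin axis Fst was the member farthest from 2i. Fst (follistatin), which binds and neutralises activin, stood at 8.65, 8.76 and 8.85 in 2i and at 6.26, 6.35 and 6.43 with YAP/TAZ siRNA, a difference of -2.42 ± 0.04 (adjusted p = 4.37e-20). The PD-only control mean of 8.40 was nearer to 2i. The related secreted protein gene Fstl1 was lower, at -0.72, and its PD-only mean of 10.46 lay near the YAP/TAZ siRNA mean of 10.35.

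The receptors Acvr1b and Acvr2a were lower, at -0.67 (-0.41 over all probe sets) and -0.37, and the ligands Nodal and Gdf3 at -0.32 and -0.16. Inhba and the co-receptor Tdgf1 were not called. The higher members were Smad2 and Smad3, by 0.18 and 0.29, and the partner factor Foxh1, by 0.65. Lefty1, Lefty2 and Skil, which restrain the pathway, were higher by 0.25, 0.39 and 0.52 (Skil 0.87 over all probe sets). Smad4 and Smad7, given above with the BMP pathway, were lower, at -0.17 and -0.52. The Nodal and activin list held 6 higher and 6 lower of 18 (33.3% each), with a median of 0.04.

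**Figure D4:**
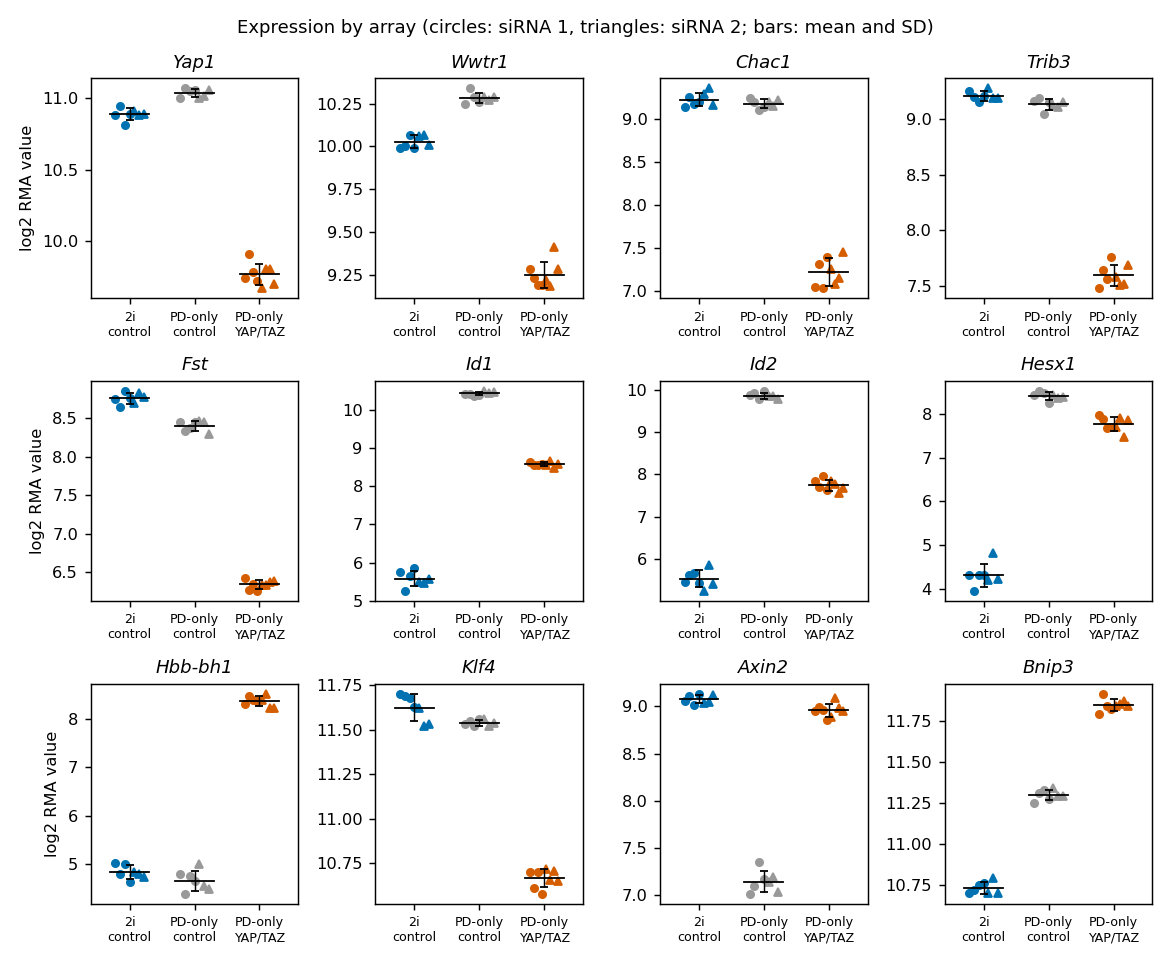
Log2 RMA level on each array for 12 genes in the 3 arms (circles siRNA 1, triangles siRNA 2; bars give mean and SD; the vertical axes differ and do not start at 0). Chac1, Trib3 and Hbb-bh1 have PD-only controls near 2i and YAP/TAZ siRNA apart, Id1, Id2 and Hesx1 have YAP/TAZ siRNA between the arms, and Axin2 has PD-only control apart.

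Embryonic globins were higher with YAP/TAZ siRNA. Hba-x, the embryonic alpha-like globin, stood at 4.55, 4.79 and 4.96 in 2i and at 6.44, 6.66 and 6.94 with YAP/TAZ siRNA, a difference of 1.93 ± 0.08, and Hbb-y, another embryonic beta-like globin, differed by 1.90 ± 0.06, or 4.10 with the mean of its probe sets. Neither had overlapping arms, and both PD-only control means, 4.82 and 3.90, were near 2i. The red cell factors did not share this size: Klf1 was higher by 0.24 (-0.0059 with the spike covariate) and Lmo2 by 0.55 (0.29 and not called with that covariate), Gata1 and Nfe2 were called higher by less than Klf1, and Tal1, Alas2, Epor and the adult globin Hba-a1 were not called. The list's mean level was 4.50 to 4.58 in 2i and 5.26 to 5.39 with YAP/TAZ siRNA, below the median gene mean of 6.635. Of 11 members 7 (63.6%) were higher and none lower, with 3 higher under the spike covariate and 2 without dim genes.

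Markers of the nervous system were divided. Tubb3, a neuronal tubulin, stood at 6.54, 6.66 and 6.86 in 2i and at 8.38, 8.42 and 8.55 with YAP/TAZ siRNA, a difference of 1.76 ± 0.04, and the eye and forebrain factor Pax6 stood at 4.84, 4.99 and 5.40 in 2i and at 6.49, 6.58 and 6.62 with YAP/TAZ siRNA, a difference of 1.49 ± 0.05, though another Pax6 probe set was called lower and the mean of all gave 0.44. Neurod1, a neuronal helix-loop-helix factor, was lower, at -1.03 and stood at 7.06, 7.11 and 7.16 in 2i and at 5.92, 6.08 and 6.24 with YAP/TAZ siRNA. None of the 3 overlapped. The PD-only control means were 7.64 for Tubb3, 6.62 for Pax6 and 9.05 for Neurod1. For Pax6 this was near the YAP/TAZ siRNA mean of 6.56, for Tubb3 between the compared arms and for Neurod1 above both. The neural factors Sox1, Six3, Rax, Olig2 and Hes5 were not called, and 6 of 16 members were higher (37.5%) and 2 lower (12.5%), with 3 higher without dim genes.

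Among genes of early lineages, Tfap2c, a factor of trophoblast and of germ cell precursors, was higher by 1.44, and the keratin gene Krt8 by 0.87. Eomes, of the primitive streak and trophoblast, was higher by 0.87. The PD-only control means of Tfap2c, Krt8 and Eomes were 9.33, 13.43 and 7.51, against 10.03, 7.6 and 7.3 with YAP/TAZ siRNA. Of these genes only Tfap2c was thus above PD-only control. Gata3, a trophoblast factor, was lower, at -0.64, and Hand1, Elf5, Plac1 and Tpbpa were not called; 7 of 14 trophoblast markers were higher (50%) and 3 lower (21.4%), and 4 higher with the spike covariate. Of 13 primitive streak markers 5 were higher (38.5%) and 1 lower (7.7%), with Wnt3 at 0.62 ± 0.10 and Gsc at 0.55 ± 0.10. Without dim genes 1 of them was higher and none lower, and the lower call was also lost in 8 of the 15 fits without 1 array (siControl#1 A or D, siControl#2 B or C, siYAP/TAZ#1 A or C, siYAP/TAZ#2 B or D). Primitive endoderm markers were mostly not called (9 of 15). Of the 15, 2 (13.3%) were higher (1 without siControl#2 A) and 4 (26.7%) lower (2 without dim genes). Dab2 was among the lower markers, at -0.52 ± 0.09 (-0.13 over all probe sets). Of 12 fibroblast markers 5 were higher (41.7%) and 2 lower (16.7%), but 1 higher and 1 lower without dim genes and 3 and 1 with the spike covariate. Vim (vimentin) and Thy1 differed by 0.96 ± 0.04 and 0.60 ± 0.07, and the collagen genes Col1a1 and Col1a2 were not called. The PD-only control means of Vim and Thy1 were 11.95 and 6.06, against 11.30 and 6.14 with YAP/TAZ siRNA. From PD-only control the median fibroblast marker lay at -1.568 in 2i and -1.285 with YAP/TAZ siRNA.

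Of 12 listed genes of the two-cell-like state and early embryo, 6 were measured, and 5 of these were lower (83.3%) and none higher. The others, Zscan4c and Dux among them, were not analysed here. Without dim genes 1 was called lower. Zfp352, a zinc finger gene of the early embryo, stood at 8.05, 8.14 and 8.27 in 2i and at 6.56, 6.69 and 6.79 with YAP/TAZ siRNA, a difference of -1.46 ± 0.04. Spz1 differed by -1.11 ± 0.11, Pramel7 by -0.71 ± 0.08 (-0.43 over all probe sets, and -0.16 and not called without cross-hybridising ones) and the neighbours in name Tcstv1 and Tcstv3, whose close copies can share probes, by -0.68 ± 0.06 and -0.44 ± 0.07.

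Naive pluripotency genes were mostly lower than in 2i, by small amounts. Of 20 members, 15 (75%) were lower and 4 (20%) higher, with a median of -0.21. Klf4, a Krueppel-like factor of the naive network, stood at 11.52, 11.63 and 11.70 in 2i and at 10.58, 10.68 and 10.72 with YAP/TAZ siRNA, a difference of -0.95 ± 0.03 (adjusted p = 6.1e-17). Its arms did not overlap, and the PD-only control mean of 11.54 lay near 2i. No other member was lower by as much. The test against a 1.2-fold difference left 5 members lower and 3 higher.

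The adhesion molecule gene Jam2 was lower, at -0.47, Klf5 at -0.44, Esrrb, an orphan nuclear receptor, at -0.39, and Pecam1, Tbx3, Klf2 and Zfp42 at -0.35, -0.31, -0.29 and -0.28. Nanog and Tfcp2l1, central factors of the network, differed by -0.22 ± 0.02 and -0.21 ± 0.02, against 0.29 and 1.36 for YAP/TAZ siRNA minus PD-only control. For Tfcp2l1 the YAP/TAZ siRNA level was thus near 2i and far from PD-only control. Nr0b1, Prdm14, Tcl1, Fgf4 and Dppa5a were lower, at -0.21, -0.13, -0.10, -0.10 and -0.05. Nr5a2 was not called, at -0.06 ± 0.03 (95% interval -0.13 to 0.01).

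Members above 2i were Dppa3 (Stella), a protein that protects maternal methylation, Gbx2, a homeobox target of STAT3, Sox15 and Fbxo15. Dppa3 stood at 10.11, 10.20 and 10.26 in 2i and at 10.70, 10.89 and 10.98 with YAP/TAZ siRNA, a difference of 0.69 ± 0.03. Gbx2 stood at 5.0, 5.38 and 5.51 in 2i and at 6.01, 6.08 and 6.31 with YAP/TAZ siRNA, a difference of 0.80 ± 0.08, and Sox15 and Fbxo15 differed by 0.69 ± 0.07 and 0.09 ± 0.02. Dppa3, Gbx2 and Sox15 exceeded both other arms, with no overlap with 2i. Among formative and primed genes, 6 of 15 were higher and 6 lower (40% each), and 5 and 3 with the spike covariate. With dim genes left out, 4 were higher and 5 lower. Fgf5, a growth factor of the epiblast, and Fgf15 were higher by 1.01 (0.53 over all probe sets) and 1.04, and Sox4 was lower, at -1.0 (-0.47 over all probe sets). Fgf5 was dim in both arms, with arrays at 2.99 to 3.96 in 2i and 4.37 to 4.91 with YAP/TAZ siRNA. Its PD-only control arrays lay far above, at 8.87 to 9.08. The Fgf15 means, 5.26 in 2i and 6.31 with YAP/TAZ siRNA, were also below the median gene mean of 6.635.

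Targets of beta-catenin were on both sides of 2i. Of 18 members, 8 (44.4%) were higher and 7 (38.9%) lower, with a median of 0.04. Without dim genes 5 were higher and 6 lower. Axin2, a scaffold of the destruction complex and a direct target, stood at 9.02, 9.06 and 9.13 in 2i and at 8.86, 8.96 and 9.09 with YAP/TAZ siRNA, a difference of -0.12 ± 0.04 (adjusted p = 0.035). Its arms overlapped, and both were far above the PD-only control mean of 7.14. The call was lost in 12 of 32 alternative fits, among them those without any 1 of 6 arrays, where the adjusted p reached 0.0859. Sp8, a zinc finger factor, stood at 6.46, 6.78 and 6.93 in 2i and at 5.08, 5.26 and 5.63 with YAP/TAZ siRNA, a difference of -1.46 ± 0.06, and was the lowest member. Tnfrsf19, a receptor of the TNF family, was lower, at -0.73 (-0.28 over all probe sets), with another probe set called higher.

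The ligase genes Rnf43 and Znrf3, which remove Wnt receptors, were lower, at -0.42 and -0.16, Ascl2 at -0.32 and Ccnd1 at -0.10. Sp5, a close relative of Sp8, stood at 6.92, 6.99 and 7.21 in 2i and at 7.45, 7.64 and 7.85 with YAP/TAZ siRNA, a difference of 0.63 ± 0.07. Dkk1, a secreted Wnt inhibitor, was higher by 0.78 (0.45 over all probe sets), but its mean of 5.11 was far below the 8.40 of PD-only control. Myc, Cdx1, Cdx2, Lef1, Notum and Apcdd1 were higher by 0.75, 0.53, 0.52, 0.53, 0.40 and 0.15, Cdx2 by 0.29 over all probe sets and not called with the spike covariate. Nkd1, Nkd2 and Lgr5 were not called. Among the pathway's components, Wls, which carries Wnt ligands to the surface, was lower, at -1.48; 7 of 24 were higher (29.2%) and 10 lower (41.7%), and 3 and 6 with the spike covariate.

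Targets of YAP/TAZ with TEAD lay on both sides of 2i. Of 22 members, 4 (18.2%) were higher, 9 (40.9%) lower and 9 not called, so that 59.1% were called against 48.3% of all genes, and the median was -0.07. Without dim genes 4 were lower. Both arms were low against PD-only control, the median member lying at -1.49 in 2i and -1.67 with YAP/TAZ siRNA. Ccn2 (CTGF), a secreted matrix protein, stood at 9.57, 9.62 and 9.68 in 2i and at 9.48, 9.59 and 9.64 with YAP/TAZ siRNA, a difference of -0.06 ± 0.03 (95% interval -0.12 to 0.0048) that was not called, against a PD-only control mean of 12.52. Ankrd1, another widely used target, was not called either, at 0.07 ± 0.06. Its levels were close to the bottom of the scale in both arms.

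Lower members were Crim1 and Amotl2, of which the latter binds and restrains YAP, with differences of -0.79 ± 0.08 and -0.65 ± 0.03. Tgfb2, Nuak2, Ccn1 (CYR61) and Ptpn14 differed by -0.61 ± 0.06, -0.58 ± 0.03, -0.46 ± 0.05 and -0.41 ± 0.03. The arms overlapped in none of Crim1, Amotl2, Tgfb2, Nuak2, Ccn1 and Ptpn14. In the whole list they did not overlap in 9 of 22 members (28.3% of all genes). Gadd45b, a stress-induced gene, was higher by 0.92, Igfbp3 by 0.51, Dock5 by 0.49 and Arhgef17 by 0.18. Among Hippo components, Vgll4, a cofactor that competes with YAP for TEAD, was lower, at -1.21 and stood at 7.28, 7.38 and 7.50 in 2i and at 5.87, 6.14 and 6.55 with YAP/TAZ siRNA. The scaffold gene Wwc2 was lower, at -0.67; of 18 members, which include Yap1 and Wwtr1, 5 were higher (27.8%) and 9 lower (50%), and 3 and 8 with the spike covariate.

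Glycolysis and hypoxia-response genes were higher. All 18 members were called, 16 (88.9%) higher and 2 (11.1%) lower, with a median of 0.48. Bnip3, a mitophagy receptor and target of HIF1, stood at 10.70, 10.72 and 10.79 in 2i and at 11.79, 11.84 and 11.91 with YAP/TAZ siRNA, a difference of 1.11 ± 0.02 (adjusted p = 3.81e-18). Egln3, a prolyl hydroxylase that marks HIF for degradation, stood at 6.12, 6.34 and 6.57 in 2i and at 7.59, 7.79 and 8.08 with YAP/TAZ siRNA, a difference of 1.46 ± 0.06. Both had separate arms and lay above PD-only control too, by 0.55 and 0.34. The glycolytic enzyme genes Pfkl, Tpi1, Hk1 and Pgk1 were higher by 0.98, 0.90, 0.89 and 0.38. The 2 lower members were the glucose transporter gene Slc2a3 and Vegfa. With the spike level as a covariate 15 were higher and 1 lower.

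Cell cycle genes were higher than in 2i. All 15 G2/M members were called higher, with a median of 0.42 and a range of 0.28 to 0.71. Of 16 S phase members 14 (87.5%) were higher and none lower, with a median of 0.24. Cdc20, an activator of the anaphase-promoting complex, and Ube2c, its partner enzyme, differed by 0.71 ± 0.03 and 0.65 ± 0.03. The mitotic kinase genes Aurkb and Plk1 differed by 0.57 ± 0.03 and 0.49 ± 0.02. Ccne1 (cyclin E1), Cdc6 and Cdc45, of the start of replication, differed by 0.67 ± 0.04, 0.64 ± 0.02 and 0.61 ± 0.03, the last 0.36 over all probe sets.

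PD-only control stood differently for the phases: the median G2/M member lay at -0.54 in 2i and -0.09 with YAP/TAZ siRNA from PD-only control, and the median S phase member at -0.003 and 0.21. A test against a 1.2-fold difference left 10 G2/M and 5 S phase members higher. Among D-type cyclins, Ccnd2 and Ccnd3 were higher by 1.40 and 0.89, with another Ccnd3 probe set called lower and 0.30 over all of them.

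Lysosome and autophagy genes were mostly lower, 16 of 20 (80.0%) with 3 higher and a median of -0.27. The cathepsin genes Ctsl, Ctsd and Ctsb differed by -0.66 ± 0.02 (-0.36 over all probe sets), -0.55 ± 0.03 and -0.51 ± 0.03, the membrane protein gene Lamp2 by -0.50 ± 0.03 and Hexa by -0.48 ± 0.03. The test against a 1.2-fold difference left 8 members lower. From PD-only control the median member lay at 0.17 in 2i and 0.06 with YAP/TAZ siRNA. The PD-only control means of Ctsl, Ctsb, Lamp2 and Hexa were 12.92, 9.78, 11.41 and 11.37, nearer to YAP/TAZ siRNA than to 2i. That of Ctsd, 11.01, was nearer to 2i. Insulin signalling genes were divided, 6 of 17 higher and 6 lower (35.3% each), with 3 higher without dim genes. The adaptor gene Irs1, the glucose-sensitive gene Txnip and the receptor gene Insr were lower, at -1.59, -1.19 and -0.78 (Insr -0.29 over all probe sets), and Igfbp4 was higher by 0.61 (0.40).

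Cholesterol synthesis genes were higher in 10 of 16 (62.5%) and lower in 2 (12.5%), with a median of 0.17, and 5 and 0 were called against a 1.2-fold difference. Fdps and Idi1 differed by 0.65 ± 0.04 (0.37 over all probe sets) and 0.64 ± 0.03. Of 18 oxidative phosphorylation genes 11 were higher (61.1%) and 1 lower (5.6%), the median being 0.08 and Atp5a1 standing at 0.34 ± 0.03. With the spike covariate 5 were higher, and against a 1.2-fold difference none was called in either direction. Of 16 genes of the actin cytoskeleton 9 were higher (56.2%) and 3 lower (18.8%), the median being 0.50. Both arms were far below PD-only control, the median member lying at -3.63 in 2i and -3.09 with YAP/TAZ siRNA. Acta1 (skeletal actin) and Tagln (transgelin) differed by 1.31 ± 0.09 and 1.02 ± 0.06. Of 12 epithelial keratin and adhesion genes 5 were higher and 5 lower (41.7% each), and 3 and 5 with the spike covariate. Dsp (desmoplakin) differed by 1.45 ± 0.05 and Ocln (occludin) by -1.29 ± 0.07, with PD-only control means of 10.61 and 7.08. The median member of this list lay at -2.65 in 2i and -2.22 with YAP/TAZ siRNA from PD-only control.

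Among DNA methylation genes 4 of 10 were higher and 4 lower (40% each), with Dnmt3l, a cofactor of de novo methylation, lower, at -0.90 and Uhrf1, which directs maintenance methylation, higher by 0.44. In the interferon list 6 of 18 were higher (33.3%) and 1 lower (5.6%), with 4 higher under the spike covariate; Oas1a differed by 1.72 ± 0.03 and Rsad2 by 0.96 ± 0.06, while 11 members, Ifit1 and Irf7 among them, were not called. Of 12 posterior homeobox genes 4 were higher (33.3%) and 2 lower (16.7%), with Hoxd1 at -1.13 ± 0.08. Without dim genes 1 of these was higher and none lower, and without siControl#2 A 1 was lower. Of 12 glucocorticoid receptor targets 4 were higher and 4 lower (33.3% each), Tsc22d3 being the largest, with Fkbp5 higher by 0.61 and Klf9 lower, at -0.51 (-0.30 over all probe sets).

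The remaining lists had members on both sides. Called higher and lower were 7 and 4 of 17 ERK targets, 5 and 7 of 14 LIF/STAT3 targets, 5 and 3 of 15 immediate early genes, 5 and 7 of 17 p53 targets and 5 and 2 of 10 general pluripotency genes. With the spike covariate these counts were 4 and 1, 3 and 6, 1 and 3, 2 and 4, and 1 and 2. Against a 1.2-fold difference none of the immediate early genes was called higher and none of the general pluripotency genes was called, and without siYAP/TAZ#1 C 3 immediate early genes were higher. Lifr, the LIF receptor gene, was lower, at -0.58 (-0.22 over all probe sets). Lin28a, an RNA-binding protein that blocks let-7, was higher by 0.47, by 0.29 over all probe sets and by 0.30 without siControl#2 A. It was not called with the spike covariate or with siControl#1 as the only 2i control. Of 9 housekeeping genes 3 (33.3%) were higher and 2 (22.2%) lower (median 0.04), B2m (beta-2 microglobulin) being lower, at -0.98.

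**Figure D5:**
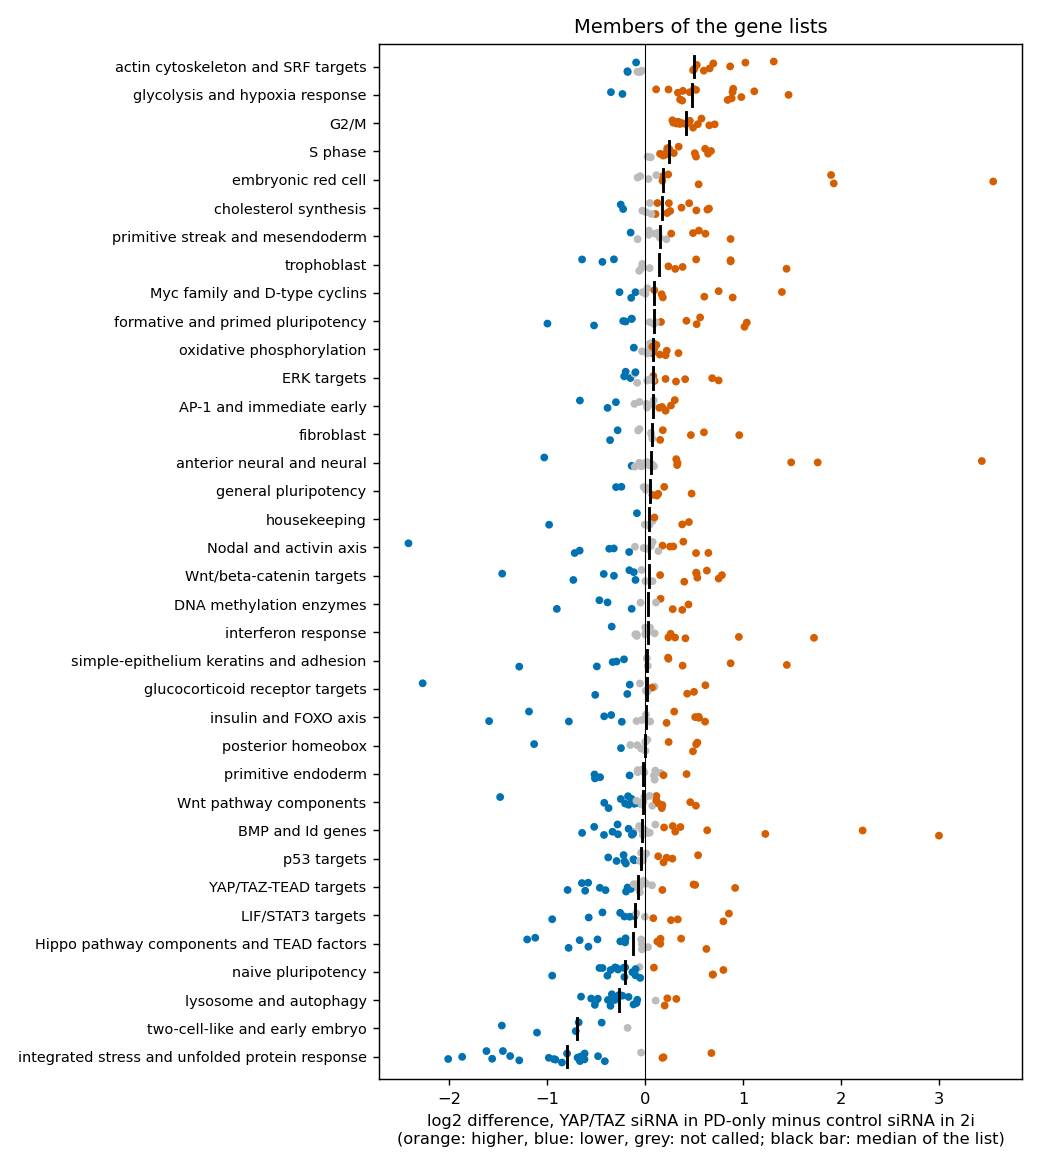
Log2 difference between YAP/TAZ siRNA in PD-only medium and control siRNA in 2i (horizontal axis) for each measured member of 36 gene lists (rows); orange points were called higher, blue lower, grey not called, and black bars give the list's median. Medians run from -0.80 for the integrated stress list to 0.50 for actin cytoskeleton genes, and the 15 G2/M members all lie above 0.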

How the data were processed

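Total RNA of 22 samples was hybridised to 1-colour Affymetrix arrays, 1 per array, per the labels' protocols. The deposited values were read as log2 units from RMA, the tool in the submitters' processing notes (version not given in the sources used here), from the tool's name and their range of 2.09 to 14.91. Groups came from the titles; 1 title misspells its control siRNA and its source name gives it in full.

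Of 45101 probe sets, 34945 had 1 gene symbol, 932 several and 9160 none listed, besides 64 controls; 34741 matched RefSeq. The probe set with the highest mean stood for each of 18193 genes (9010 had several). limma 3.58.1 in R 4.3.3 fitted 1 mean per group to all 22 arrays (16 residual and 3.1 prior degrees of freedom); calls used a Benjamini-Hochberg adjusted p of 0.05. Array measures had two-sided exact permutation tests over 6435 arrangements. The fit was tested on simulated data.

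The text names Yap1 and Wwtr1; the called genes with the 14 highest and 14 lowest differences, if either arm reached the median gene mean (6.635) and the arms did not overlap (predicted names passed over); in each list, at most 5 called genes, taken by size of difference; and members of the naive, beta-catenin, TEAD, BMP, Nodal and stress lists. Other list members are named only as called or not called. Members and lists were chosen with earlier results of these data known. Lists had no set test. Promoter windows are RefSeq's (GRCm38.p6). Alternatives were 17 other settings and 15 fits without 1 array each. Figures used matplotlib 3.10.9 in Python 3.11.15.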

Additional observations from a re-analysis of the deposited data

Results flagged for a closer look

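Of 406 sets of array values tested (each gene named and each array measure, in both arms), 25 had 1 array far from the others by Dixon's ratio, the gap to the nearest array as a share of the arm's range (critical value 0.568 for 7 arrays and 0.526 for 8). Chance alone flags about 1 in 20. In the 2i arm, array siControl#1 C stood apart for Dnajb9 (highest, 9.41 with the next at 9.27, ratio 0.609) and Tnfrsf19 (highest, 10.65 with the next at 10.56, ratio 0.600). Array siControl#2 A stood apart for Lin28a (lowest, 8.27 with the next at 9.05, ratio 0.639) and Sesn2 (lowest, 9.63 with the next at 9.85, ratio 0.595). Array siControl#2 B stood apart for Actb (highest, 14.21 with the next at 14.11, ratio 0.667), Atp5a1 (highest, 13.14 with the next at 13.02, ratio 0.571), Hesx1 (highest, 4.82 with the next at 4.33, ratio 0.570) and Hexa (highest, 12.24 with the next at 12.09, ratio 0.652). Array siControl#2 C stood apart for Amotl2 (highest, 10.36 with the next at 10.20, ratio 0.615), Dnmt3l (lowest, 11.72 with the next at 11.94, ratio 0.579), Dock5 (lowest, 7.99 with the next at 8.10, ratio 0.579), Lefty1 (lowest, 11.38 with the next at 11.46, ratio 0.615), Lifr (lowest, 10.29 with the next at 10.36, ratio 0.700), Skil (highest, 11.47 with the next at 11.32, ratio 0.789) and the Actb 3′ minus 5′ difference (highest, 1.19 with the next at 0.97, ratio 0.688). In the YAP/TAZ siRNA arm, array siYAP/TAZ#1 A stood apart for Phgdh (lowest, 10.76 with the next at 10.90, ratio 0.700). Array siYAP/TAZ#1 B stood apart for Acta1 (lowest, 6.92 with the next at 7.08, ratio 0.615), Nkd1 (highest, 5.96 with the next at 5.67, ratio 0.558), Pgk1 (highest, 13.94 with the next at 13.90, ratio 0.571), Sall4 (highest, 12.28 with the next at 12.20, ratio 0.571) and Smad2 (highest, 9.31 with the next at 9.23, ratio 0.667). Array siYAP/TAZ#1 D stood apart for Malat1 (highest, 12.08 with the next at 11.14, ratio 0.691). Array siYAP/TAZ#2 C stood apart for Bmpr2 (highest, 8.77 with the next at 8.66, ratio 0.550), Hexa (lowest, 11.54 with the next at 11.59, ratio 0.714) and Wwtr1 (highest, 9.41 with the next at 9.28, ratio 0.565). For Malat1 every YAP/TAZ siRNA array lay below every 2i array, which was a condition for naming it and says nothing on the outlying array.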

How the results depend on the processing

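The limits are the number of arrays, RMA's lack of a detection call and the compression of dim genes. Over 15 fits without 1 array each, 8511 to 8666 genes were called (8791 with all) and 272 to 279 by 2-fold or more. Among 17 other settings the count of called genes left the range of 1.5 times in 2: 5605 with the poly-A spike level as a covariate (2875 higher, 2730 lower) and 2452 with the test against a 1.2-fold difference (1199 higher, 1253 lower). The 2-fold count ran from 201 with the mean of all probe sets of a gene, which shared 191 with the 275, to 305 with the spike covariate, which shared 255. Of 187 called genes named with a value, 143 kept their call and direction in every alternative that gave a value; 41 lost the call in the test against 1.2-fold and 21 with the spike covariate. With the mean of all probe sets, 30 of 129 named genes with a difference of at least 0.5 moved by over 1.5 times, 28 to a smaller and 2 to a larger difference. Leaving out 1 array ended the call of Axin2 for 6 arrays (siControl#1 B or D, siControl#2 C, siYAP/TAZ#1 D, siYAP/TAZ#2 A or D; adjusted p 0.0581 to 0.0859), and without siControl#2 A the calls of Fgf4 (adjusted p 0.0728) and Dppa5a (0.0503) were lost. Of the 10 genes given above as not called whose alternatives were followed, 5 were called in some alternative; the others that are only named as not called were not followed. Some directions turned: Bmpr1a was 0.12 with the mean of all probe sets, Myof 0.0071 and Acta2 -0.21 without cross-hybridising probe sets, and Klf1 -0.0059 with the spike covariate; the cause was not tested. The motif was in 7 of 22 stress list members with a window (31.8%) and 407 of 14368 genes (2.8%) when only the 250 bases before the start were read. Replicate letters did not pair the arrays: same-letter deviations from group means correlated at -0.077 to 0.118 over 21 pairs, 1 of them above 0.1. With the letter as a replicate block 8714 genes were called, 276 by 2-fold or more.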
